A study of Mus musculus with 4 samples.

Results

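The 37 genes described here carry out DNA replication and cell division, and were picked by name from the 25819 rows of the deposited expression table. They fall into 11 genes of DNA replication, 6 genes that govern the G1 and S phases, and 20 genes of mitosis. The fetal urogenital sinus (UGS), the rudiment of the prostate, was taken whole from male mouse embryos on a B6C3-F1 hybrid background at embryonic days E16.5 and E18.5. Mutant embryos were homozygous for Tbx18GFP/GFP, a GFP knock-in that removes the mesenchymal transcription factor TBX18, and were set against wild type littermates at each stage. Each of the 4 groups was 1 RNA-Seq library made from the pooled RNA of 3 embryos. There was therefore no replicate, every ratio below compares a pair of libraries, and no test between genotypes or stages was possible. Tbx18 itself was read at 3.47 FPKM in E16.5 wild type, 2.50 in E16.5 mutant, 3.16 in E18.5 wild type and 2.93 in E18.5 mutant UGS. Both wild type values lay above both mutant values, though the transcript was still read in mutant UGS. The part of the gene that the knock-in replaces is not given in the sources used here.

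A cell that is about to divide first loads the MCM helicase onto its origins of replication, and D and E cyclins with their kinases then release the E2F factors that drive the genes of S phase. During S phase the helicase unwinds the DNA, the PCNA clamp holds the polymerases on it, and ribonucleotide reductase and thymidylate synthase supply the deoxynucleotides. CDK1 with A and B cyclins then starts mitosis, kinases and motor proteins build and check the spindle, and the anaphase promoting complex ends it. CDK inhibitors such as p21, the product of Cdkn1a, hold these steps back. In the late fetal UGS, dividing cells are found in the epithelium that forms prostate buds and in the mesenchyme around it.

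FPKM, fragments scaled to the length of the transcript and the mapped reads of the library, is the unit of every level below. From the smallest values in the table the libraries held an estimated 64000000 mapped reads in E16.5 wild type, 55700000 in E16.5 mutant, 29000000 in E18.5 wild type and 52400000 in E18.5 mutant UGS. E18.5 wild type stood apart. Among genes that reached 1 FPKM in each of the compared libraries, the median log2 ratio of mutant to wild type (the all-gene median) was 0.29 at E18.5 and 0.01 at E16.5, and that of E18.5 to E16.5 was -0.33 in wild type and -0.06 in mutant UGS. Globin transcripts took 3.88%, 5.81%, 1.56% and 5.63% of the FPKM sum in the order E16.5 wild type, E16.5 mutant, E18.5 wild type and E18.5 mutant, which is the order of all sets of 4 values below. The summed FPKM of 5 erythroid markers was 12225, 19617, 3805 and 17305, with all 5 higher in the mutant at both stages. That of 5 smooth muscle markers was 1044, 540, 1231 and 3434, with none of the 5 higher in the mutant at E16.5 and all 5 at E18.5, and their part in the results on dividing cells was not tested. The summed levels of 6 epithelial markers (467, 403, 424 and 524) and 5 mesenchymal markers (2283, 2337, 2033 and 2762) were well above 0 in each library, as the label of the tissue requires. In whole tissue, fewer cells of a kind and less RNA per cell cannot be told apart.

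All 37 genes were read at 1 FPKM or more in every library, and 35 of them at 8 FPKM or more. The smallest value rested on an estimated 350 reads, for Cdc6 in E18.5 wild type UGS. Pcna, which encodes the sliding clamp, was the highest of the 37, at 121, 138, 101 and 128 FPKM. Ccnd2 and Ccnd1, which encode the D cyclins that start G1, followed with 97.6, 103, 56.7 and 79.1 FPKM and with 75.7, 81.2, 58.2 and 69.5 FPKM. Ube2c, the ubiquitin conjugating enzyme of the anaphase promoting complex, had the highest mean level of the mitosis genes, at 69.8, 73.3, 56.8 and 63.8 FPKM, though Mki67 was above it in E18.5 wild type at 62.1 FPKM. At the low end, Cdc6, which loads the helicase, was at 4.10, 4.73, 2.73 and 4.01 FPKM. The median level of the 11 replication genes was 29.6, 31.8, 21.9 and 28.2 FPKM, and that of the 20 mitosis genes 22.5, 24.1, 21.3 and 22.5 FPKM.

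As deposited, both sets were thus highest in E16.5 mutant UGS, but with equal FPKM sums the mitosis genes were highest in E18.5 wild type, with a median log2 ratio to E16.5 wild type of 0.19 against 0.00458 for E16.5 mutant. Of the 37 genes, 29 had their highest deposited value in E16.5 mutant UGS, among them all 11 replication genes and 14 mitosis genes, where 32.2% of the 15023 genes past 1 FPKM in any library did. E18.5 wild type was the lowest library for 26 of the 37, against 63.7% of all genes, and the highest for 5 (Ccne2, Tpx2, Cenpe, Cenpf and Mki67), against 21.9%. With that library set aside, the highest and the lowest of the other 3 values differed by a median of 1.14-fold over the 37 genes and by at most 1.46-fold, for Cdkn1a. With all 4 libraries the median was 1.40-fold.

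**Figure D1:**
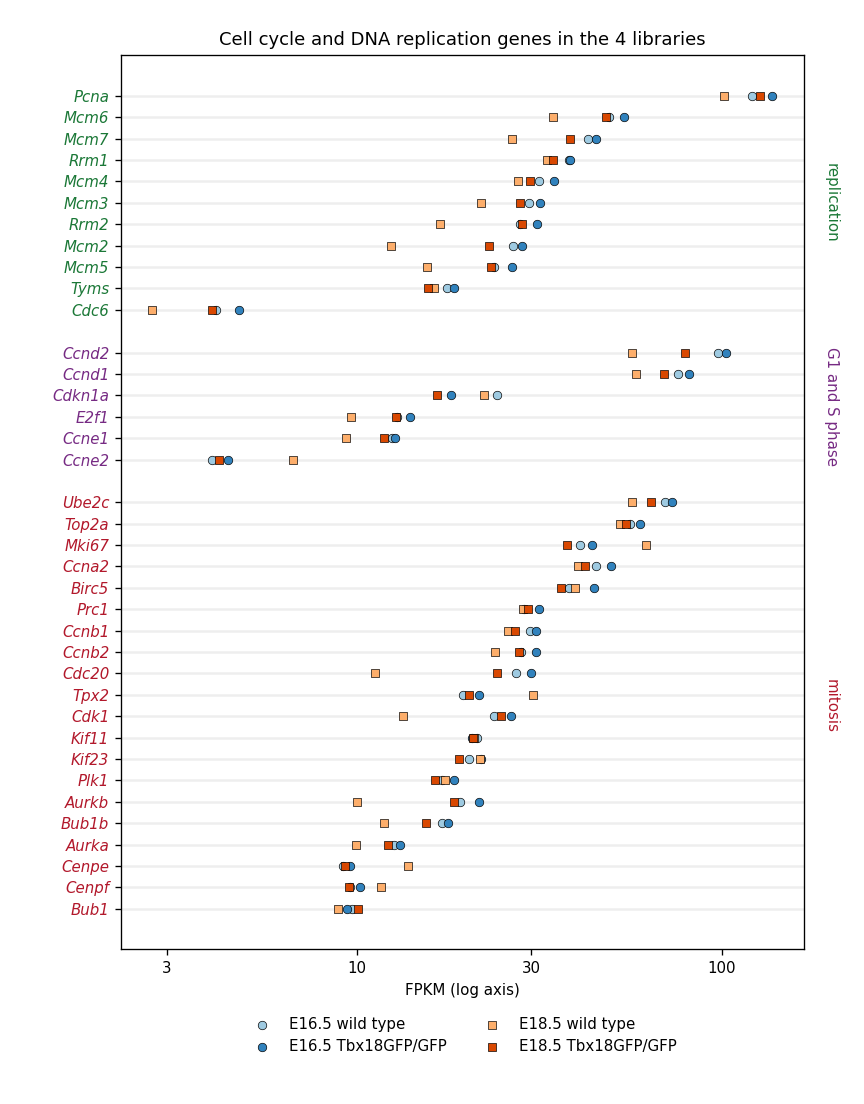
Level of each of the 37 genes in FPKM (log axis) in the 4 libraries, 1 point per library, with replication genes in green, G1 and S phase genes in purple and mitosis genes in red, each ordered by mean level. The light square of E18.5 wild type lies to the left of the other 3 points for 26 genes and to the right for 5, while the other 3 points lie close together except for Cdkn1a.

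Short motifs known from cell cycle promoters were counted in the promoters of these genes, with no test of a difference, and are shown for genes on which the results turn. RefSeq promoter windows (build GRCm38.p6, 250 bases before to 50 after the start site) were matched for 30 of the 37 genes, and Ccna2, Tpx2, Ccnd1, Ccne2, Ccnd2, Aurkb and Mcm4 had none. Both strands were searched, and hits of different motifs were allowed to overlap. The letters TTTGAA, the core of the cell cycle genes homology region through which genes of mitosis are repressed outside the dividing cell, were present in 13 of 17 mitosis genes and 1 of 10 replication genes, and in 20.2% of the 27025 genes with a window. The CCAAT box, bound by the factor NF-Y, was present in 16 of 17 mitosis genes, 8 of 10 replication genes and 41.1% of all genes. The E2F letters TTTCCCGC or TTTGGCGC were present in 5 of 10 replication genes (Mcm3, Mcm5, Mcm6, Mcm7 and Cdc6), in none of the 17 mitosis genes and in 1.80% of all genes. A match describes the letters and is not evidence of binding in this tissue.

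The 250 bases before the start site are given 5′ to 3′ for 5 genes, with the motif hits in capitals. Mcm6 (chr1:128359706-128359955, minus strand) shows a pair of E2F hits, TTTGGCGC, that begin 110 and 47 bases before the start, and ATTGG, the CCAAT box read on the other strand, 57 and 14 bases before it. Mcm2 (chr6:88898781-88899030, minus strand) is the only replication gene with TTTGAA, 70 bases before the start. Cdc20 (chr4:118437344-118437593, minus strand) has TTTGAA 18 bases and CCAAT 53 and 8 bases before it. Mki67 (chr7:135716380-135716629, minus strand) has TTTGAA 116 and 98 bases before it and 3 CCAAT boxes. Cdkn1a (chr17:29090729-29090978, plus strand, the more distal of its 2 listed starts) has ACATGT, the core of a p53 site, 49 and 39 bases before it. The window of its other listed start held none of these motifs.
Mcm6: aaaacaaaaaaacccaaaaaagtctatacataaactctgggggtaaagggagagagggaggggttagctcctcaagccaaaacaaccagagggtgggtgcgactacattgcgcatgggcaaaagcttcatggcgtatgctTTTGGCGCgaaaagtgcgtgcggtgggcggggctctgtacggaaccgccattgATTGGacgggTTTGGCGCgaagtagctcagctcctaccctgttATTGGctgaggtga
Mcm2: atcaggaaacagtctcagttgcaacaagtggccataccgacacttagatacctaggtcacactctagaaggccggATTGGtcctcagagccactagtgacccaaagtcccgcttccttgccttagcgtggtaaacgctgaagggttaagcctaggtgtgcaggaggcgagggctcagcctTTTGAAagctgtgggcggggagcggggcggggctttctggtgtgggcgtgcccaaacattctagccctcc
Cdc20: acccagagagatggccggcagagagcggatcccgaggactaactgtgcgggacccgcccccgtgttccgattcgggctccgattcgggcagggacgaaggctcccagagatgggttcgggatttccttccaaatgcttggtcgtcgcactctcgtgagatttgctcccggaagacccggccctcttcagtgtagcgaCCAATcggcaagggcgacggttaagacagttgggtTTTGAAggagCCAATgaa
Mki67: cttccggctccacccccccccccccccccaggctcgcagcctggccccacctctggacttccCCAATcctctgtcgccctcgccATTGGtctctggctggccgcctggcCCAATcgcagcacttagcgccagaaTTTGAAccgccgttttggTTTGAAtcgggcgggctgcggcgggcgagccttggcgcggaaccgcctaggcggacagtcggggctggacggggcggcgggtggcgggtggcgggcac
Cdkn1a: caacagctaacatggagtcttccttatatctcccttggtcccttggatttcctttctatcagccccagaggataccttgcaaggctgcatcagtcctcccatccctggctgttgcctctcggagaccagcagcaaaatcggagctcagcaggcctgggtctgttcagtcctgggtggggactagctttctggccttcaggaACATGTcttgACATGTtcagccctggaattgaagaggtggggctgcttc
At least 2 copies of ACATGT were found in 0.392% of all genes. Cdc20 and Mki67, which both carry TTTGAA and CCAAT, lay at opposite ends of the E18.5 comparison below.

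The first comparison asked which genes differed between mutant and wild type UGS at E16.5, before prostate buds form. In the values as deposited, nearly all of the machinery of replication and division was slightly higher in mutant UGS, and the CDK inhibitor gene Cdkn1a was lower. Of the 37 genes 34 were higher in the mutant library, where 54.2% of 14761 genes tested were, and 19 were higher once the FPKM sums of the libraries were made equal. None was 1.5-fold higher (1.44% of all genes were) or 1.5-fold lower (2.72%). The 11 replication genes all had a ratio above 1 as deposited, with log2 ratios from 0.01 for Rrm1, a ribonucleotide reductase subunit, to 0.21 for Cdc6 and a median of 0.13. The 20 mitosis genes had a median of 0.11, with 18 higher, and the median of all genes was 0.01.

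Among the replication genes, Pcna was at 121 FPKM in wild type and 138 in mutant UGS, a log2 ratio of 0.18 with a 95% counting interval of 0.14 to 0.22. Mcm6, a subunit of the replicative helicase, was at 48.9 and 53.8 FPKM. Birc5, which encodes the survivin subunit of the chromosomal passenger complex, was at 38.2 and 44.7 FPKM and had the largest log2 ratio of the 37, 0.23 (0.18 to 0.27). These intervals cover the counting of reads alone and say nothing of the spread between embryos or libraries. Ccnd1 was at 75.7 and 81.2 FPKM, and E2f1, the activator of S phase genes, at 12.8 and 14.0 FPKM. The ratios thus reached at most 1.17, and for part of the 37 genes their direction depended on how the libraries were scaled. With equal FPKM sums the medians were 0.03 for replication and 0.00458 for mitosis genes, and with the sums equal apart from globin rows 26 were higher. Against the all-gene median 33 of the 37 were higher.

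Cdkn1a went the other way. It was at 24.1 FPKM in E16.5 wild type and 18.1 in E16.5 mutant UGS, 1.33-fold lower, with a log2 ratio of -0.42 (-0.50 to -0.33). At E18.5 it was at 22.2 FPKM in wild type and 16.6 in mutant UGS, 1.34-fold lower, with a log2 ratio of -0.42 (-0.53 to -0.32). Both wild type values thus lay above both mutant values, and the log2 ratio was below 0 under every scaling tried, from -0.52 to -0.42 at E16.5 and from -1.04 to -0.42 at E18.5. With E16.5 wild type in place of E18.5 wild type, a pair that also differs in stage, the E18.5 mutant value gave -0.54. Within each library, the ratio of Cdkn1a to Pcna, which no scaling of a whole library can change, was 0.199, 0.131, 0.219 and 0.130. Cdkn1a was the only one of the 37 genes that was at least 1.3-fold lower in the mutant at both stages, as were 1.22% of 14471 genes tested at both (the 1.3-fold limit was set after its values were seen). The other gene below wild type at both stages was Kif11, a spindle motor, at 21.3, 20.6, 20.9 and 20.8 FPKM, with log2 ratios of -0.05 and -0.01 (0.02 at E18.5 with the length and GC trend subtracted).

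Other CDK inhibitors and pocket proteins, a list of 13 genes of which 12 passed the filter, differed less than Cdkn1a at E16.5, the lowest being Rb1, the retinoblastoma gene, at -0.23. Their median log2 ratio was 0.04 with 9 of 12 higher (54.2% of all genes were), or -0.06 with 1 of 12 higher with equal FPKM sums. None was 1.5-fold apart as deposited. Cdkn1c, which encodes p57, was the most abundant, at 288, 266, 360 and 249 FPKM. Cdkn1b, which encodes p27, was at 19.5, 20.4, 31.1 and 21.0 FPKM. Both were thus highest in E18.5 wild type, and in mutant UGS their log2 ratios of E18.5 to E16.5 were -0.10 and 0.04. The 11 other target genes of p53, the best known activator of Cdkn1a, had a median log2 ratio of -0.06 at E16.5, with 4 of 11 higher (54.2% of all genes were) and none 1.5-fold apart. Among them Mdm2, the inhibitor of p53, was at 16.9, 17.2, 21.9 and 16.2 FPKM and Ccng1, a cyclin G gene, at 22.7, 21.0, 29.1 and 23.3 FPKM. Summed leukocyte markers were 19.4, 72.7, 22.8 and 18.4 FPKM and summed skeletal muscle markers 443, 174, 260 and 558 FPKM. At E16.5 all 5 leukocyte markers and none of 5 skeletal muscle markers were higher in the mutant, and at E18.5 1 of each was. Of the 72.7 FPKM, S100a8 and S100a9 gave 31.1 and 29.0, and of the 558 FPKM Acta1 alone gave 455. The part of these cells in the Cdkn1a values was not tested.

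**Figure D2:**
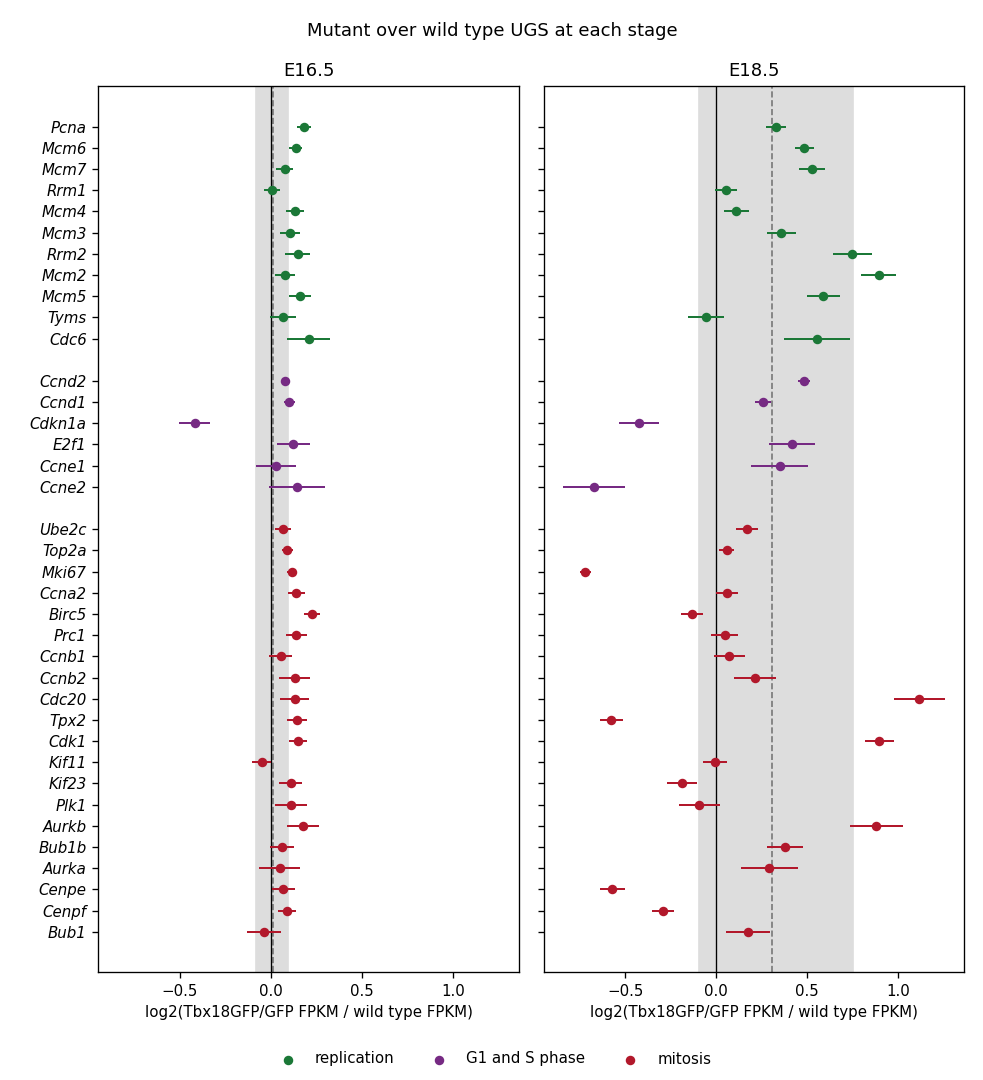
Log2 ratio of mutant to wild type FPKM for the 37 genes at E16.5 (left) and E18.5 (right). Lines are 95% counting intervals, the grey band holds the middle quartiles of all genes tested and the dashed line their median. At E16.5 all ratios as deposited lie between -0.42 and 0.23 and 34 of 37 are above 0 (19 with the FPKM sums made equal), and at E18.5 they spread from -0.72 for Mki67 to 1.11 for Cdc20.

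At E18.5 the genes no longer kept together. Replication genes were higher in mutant UGS, with a median log2 ratio of 0.48 (10 of 11 higher), which was 0.19 against the all-gene median, 0.06 with equal FPKM sums and -0.08 with E16.5 wild type in place of E18.5 wild type. Mitosis genes split, with a median of 0.06 as deposited (12 of 20 higher) that turned to -0.23 against the all-gene median and to -0.37 with equal sums. Of all 37 genes 26 were higher as deposited, where 69.5% of 14733 genes tested were, but 10 with equal FPKM sums, 12 with equal sums without globin rows, 16 against the all-gene median or with upper quartile scaling, 15 with the trend in transcript length and GC content subtracted, and 8 with E16.5 wild type in place of E18.5 wild type.

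Of the 37 genes 6 were at least 1.5-fold higher in the mutant, Mcm2, Mcm5, Rrm2, Cdk1, Aurkb and Cdc20, where 33.2% of all genes were. Another 2, Ccne2 and Mki67, were at least 1.5-fold lower, where 7.6% of all genes were. At 2-fold only Cdc20 was higher (15.1% of all genes) and none was lower (2.89%). The share of the 37 that was 1.5-fold higher was thus below that of all genes, and the share that was lower was near it. Against the all-gene median, 4 were 1.5-fold higher (Mcm2, Cdk1, Aurkb and Cdc20, 19.7% of all genes) and 5 lower (Ccne2, Cdkn1a, Tpx2, Cenpe and Mki67, 16%). With the trend in transcript length and GC content subtracted, 1 was higher (Cdk1, 13.1%) and 5 were lower (14.7%). The split of higher and lower genes thus depended on the scaling.

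As deposited, the helicase genes were higher together. Mcm2 was at 26.8, 28.3, 12.4 and 22.9 FPKM, and its E18.5 ratio was 1.85, or 0.89 on the log2 scale (0.79 to 0.99). Mcm5 was at 23.8, 26.6, 15.5 and 23.3 FPKM, and Mcm7 at 43.0, 45.3, 26.6 and 38.3 FPKM. For all of these the value of E18.5 wild type lay below the other 3, which were close to each other. The 7 genes of the helicase and its loading were all higher in the E18.5 mutant, where 69.5% of all genes were. Their median log2 ratio of 0.53 was 0.24 against the all-gene median. Mcm4 (27.6 and 29.8 FPKM) was 0.11 higher as deposited and -0.18 against that median. Mcm3 and Mcm4 both turned below 0 with equal FPKM sums, and also with the length and GC trend subtracted (-0.09 and -0.02). With E16.5 wild type in place of E18.5 wild type all 7 were below 0, from -0.22 for Mcm2 to -0.02 for Mcm6. That pair differs in stage as well as genotype. Among the genes of deoxynucleotide supply, Rrm2, the regulated subunit of ribonucleotide reductase, was at 28.0, 31.1, 16.8 and 28.2 FPKM. Its partner Rrm1 was at 38.2, 38.3, 33.2 and 34.5 FPKM and Tyms, thymidylate synthase, at 17.6, 18.4, 16.2 and 15.6 FPKM. Subunits of one enzyme thus differed unequally, by 0.75 for Rrm2 and 0.05 for Rrm1 on the log2 scale.

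Among the cyclins of G1 and S phase, Ccnd2 had a log2 ratio of 0.48 and Ccnd1 of 0.25 at E18.5. Against the all-gene median these were 0.19 and -0.03, so that the direction of Ccnd1 turned. E2f1 was at 12.8, 14.0, 9.60 and 12.8 FPKM, a log2 ratio of 0.41 that turned to -0.33 once the trend with transcript length and GC content was subtracted. The E cyclins, which partner CDK2 at the start of S phase, parted. Ccne1 was at 12.5, 12.7, 9.33 and 11.9 FPKM and Ccne2 at 3.99, 4.41, 6.65 and 4.17 FPKM. In E18.5 wild type Ccne1 was thus at its lowest and Ccne2 at its highest, and the log2 ratio of mutant to wild type was 0.35 for Ccne1 and -0.67 (-0.84 to -0.50) for Ccne2.

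Mitosis genes spread widely, also within one role. Cdc20, the activator of the anaphase promoting complex, was at 27.3, 29.9, 11.2 and 24.2 FPKM, 2.16-fold higher in the E18.5 mutant, with a log2 ratio of 1.11 (0.97 to 1.26). Cdk1, the kinase that starts mitosis, was at 23.8, 26.4, 13.3 and 24.8 FPKM. Aurkb, the kinase of the chromosomal passenger complex, was at 19.1, 21.6, 9.99 and 18.4 FPKM. These 3 genes were low in E18.5 wild type alone. The 7 genes of the spindle, kinetochore and cytokinesis had a median log2 ratio of -0.19 (1 of 7 higher), which was -0.48 against the all-gene median. Larger lists of these roles leaned the same way by less. Of 22 further genes of spindle motors and cytokinesis 10 were higher (median -0.01), and 8 of 17 of the kinetochore and centromere (median -0.04). Against the all-gene median these medians were -0.30 and -0.33, and 69.5% of all genes were higher. Tpx2, a spindle assembly factor, was at 19.5, 21.6, 30.3 and 20.3 FPKM, and Cenpe, a kinetochore motor, at 9.11, 9.57, 13.8 and 9.27 FPKM. Mki67, which encodes the proliferation marker Ki-67, a coat of mitotic chromosomes, was at 40.8, 44.2, 62.1 and 37.7 FPKM. Its log2 ratio at E18.5 was -0.72 (-0.75 to -0.69), the lowest of the 37. Each of these 3 genes was high in E18.5 wild type alone. Top2a, the topoisomerase of mitotic chromosomes, changed little over the libraries, at 55.9, 59.5, 52.6 and 54.7 FPKM, and so did Kif11.

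The remaining mitosis genes lay between these ends. The mitotic cyclins Ccna2, Ccnb1 and Ccnb2 had log2 ratios of 0.06, 0.07 and 0.21 at E18.5, all below 0 against the all-gene median (-0.23, -0.22 and -0.07). Of the spindle checkpoint kinases, Bub1b was 0.38 higher and Bub1 0.18, the latter being -0.11 against that median. Aurka and Plk1, which drive centrosome maturation, were 0.29 and -0.09. Birc5, Kif23 and Cenpf were lower by each of these measures, at -0.13, -0.19 and -0.29 as deposited.

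Ratios between genes of one library do not depend on its scaling. The pairs below were chosen after the values were seen, so E18.5 wild type stands apart from the other 3 in them by that choice. Mki67 to Cdc20 was 1.49, 1.48, 5.55 and 1.56. Mki67 to Mcm2 was 1.52, 1.56, 5.01 and 1.64, and Tpx2 to Aurkb 1.02, 1.00, 3.03 and 1.10. In each pair the libraries of E16.5 wild type, E16.5 mutant and E18.5 mutant gave nearly one value. Mcm2 to Mcm4, subunits of one hexamer, was 0.849, 0.818, 0.449 and 0.770. Taking such a ratio does not remove a trend with transcript length or GC content, in which these genes differed. GC content was 46.6% for Mki67, 55.6% for Cdc20, 55.5% for Mcm2 and 45.5% for Mcm4.

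**Figure D3:**
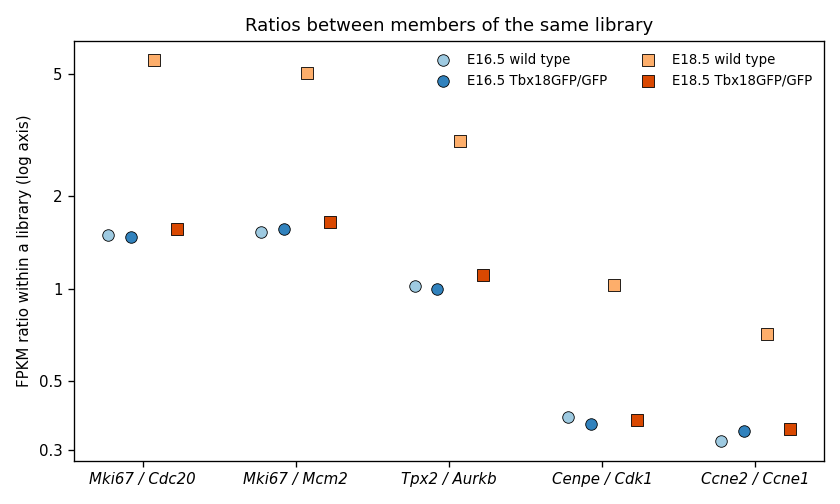
FPKM ratios of 5 pairs of genes within each library (log axis), 1 point per library. In every pair, chosen after the values were seen, the light square of E18.5 wild type lies above the other 3 points. For Mki67 to Cdc20 it lies at 5.55 against 1.48 to 1.56.

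The E18.5 ratios also varied with base composition and transcript length, though not for every gene. Tpx2, high in E18.5 wild type, and Cdk1, low there, both had a GC content of 47.8%. Across the 37 genes the E18.5 log2 ratio was higher where the GC content of the longest coding transcript was higher, with Spearman's rho of 0.47 (n = 37 genes, which share the same pair of libraries and are not independent). Across all 13810 genes with both values rho was 0.45, and at E16.5 it was 0.03 over the 37 and 0.02 over 13859 genes. With transcript length, rho at E18.5 was -0.26 over the 37 and -0.22 over all genes. Over the 20 mitosis genes it was -0.60 with length and 0.42 with GC content. Over the 11 replication genes it was -0.06 and 0.57. The 13 genes of lowest GC content had a median E18.5 log2 ratio of 0.06, the 12 in between 0.23 and the 12 of highest GC content 0.39. Once the trend of all genes with length and GC content was subtracted, the median of the replication genes was 0.03 and that of the mitosis genes -0.13. Cdc20 then stood at 0.41, Mcm2 at 0.33, Cdk1 at 0.75, Rrm2 at 0.50, Tpx2 at -0.72 and Mki67 at -0.59, so these kept the direction they had as deposited. Cdkn1a and Plk1 were low for their GC content, at -1.04 and -0.76. What set the trends with GC content and length was not tested.

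**Figure D4:**
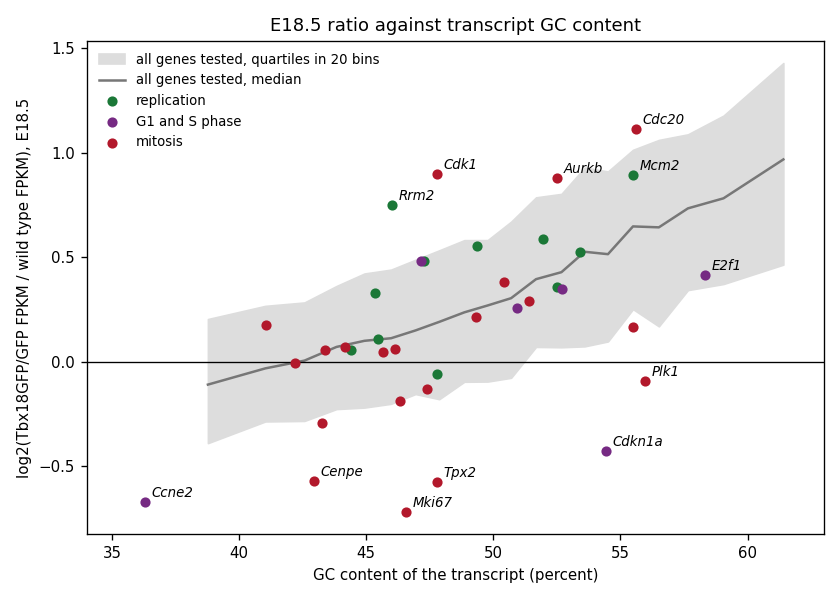
E18.5 log2 ratio of mutant to wild type FPKM against transcript GC content in percent, 1 point per gene, with the median (line) and quartiles (band) of all genes tested in 20 bins of GC content. The 37 genes follow the rise of all genes (rho 0.47 against 0.45), with Cdk1, Rrm2, Cdc20 and Aurkb above the band and Mki67, Tpx2, Cenpe, Ccne2, Plk1 and Cdkn1a among those below it.

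Between stages, the wild type and mutant libraries gave different pictures, and these comparisons share their libraries with those above. In mutant UGS the 37 genes were slightly lower at E18.5 than at E16.5. Of these 35 were lower and 2, Bub1 (0.09) and Kif11 (0.01), higher, where 35.3% of 14713 genes were higher, and 1 to 3 were higher under the scalings tried. The median log2 ratio was -0.19 for replication genes, -0.17 for mitosis genes and -0.06 for all genes. The lowest ratio was that of Ccnd2, 103 and 79.1 FPKM, at -0.38, and none of the 37 was 1.5-fold higher (3% of all genes) or lower (1.68%).

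In wild type UGS 8 genes were higher at E18.5, where 27.7% of 14807 genes were, a count of 19 to 21 under the other scalings. All 11 replication genes were lower, with a median of -0.50 that was -0.17 against the all-gene median. The median of the mitosis genes was -0.10 as deposited and 0.23 against that median. Those at least 1.5-fold higher were Ccne2, Tpx2, Cenpe and Mki67 (6.8% of all genes), and 8 were at least 1.5-fold lower (35.9%), Mcm2, Mcm5, Mcm7, Rrm2, Ccnd2, Cdk1, Aurkb and Cdc20. At 2-fold none was higher (2.7% of all genes), and Mcm2 and Cdc20, at -1.11 and -1.29, were lower (16.8%). Against the all-gene median 5 were 1.5-fold higher (15.9%) and 3 lower (19.8%), and with the length and GC trend subtracted 3 were higher (14.1%) and 2 lower (12.5%). With the E18.5 wild type library left out, the E18.5 mutant differed from E16.5 wild type by a median log2 ratio of -0.07 over the 37 genes. Over all genes it was -0.04. All 37 lay within 1.5-fold, from -0.54 for Cdkn1a to 0.07 for Pcna, and the share of all genes within 1.5-fold was not counted.

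**Figure D5:**
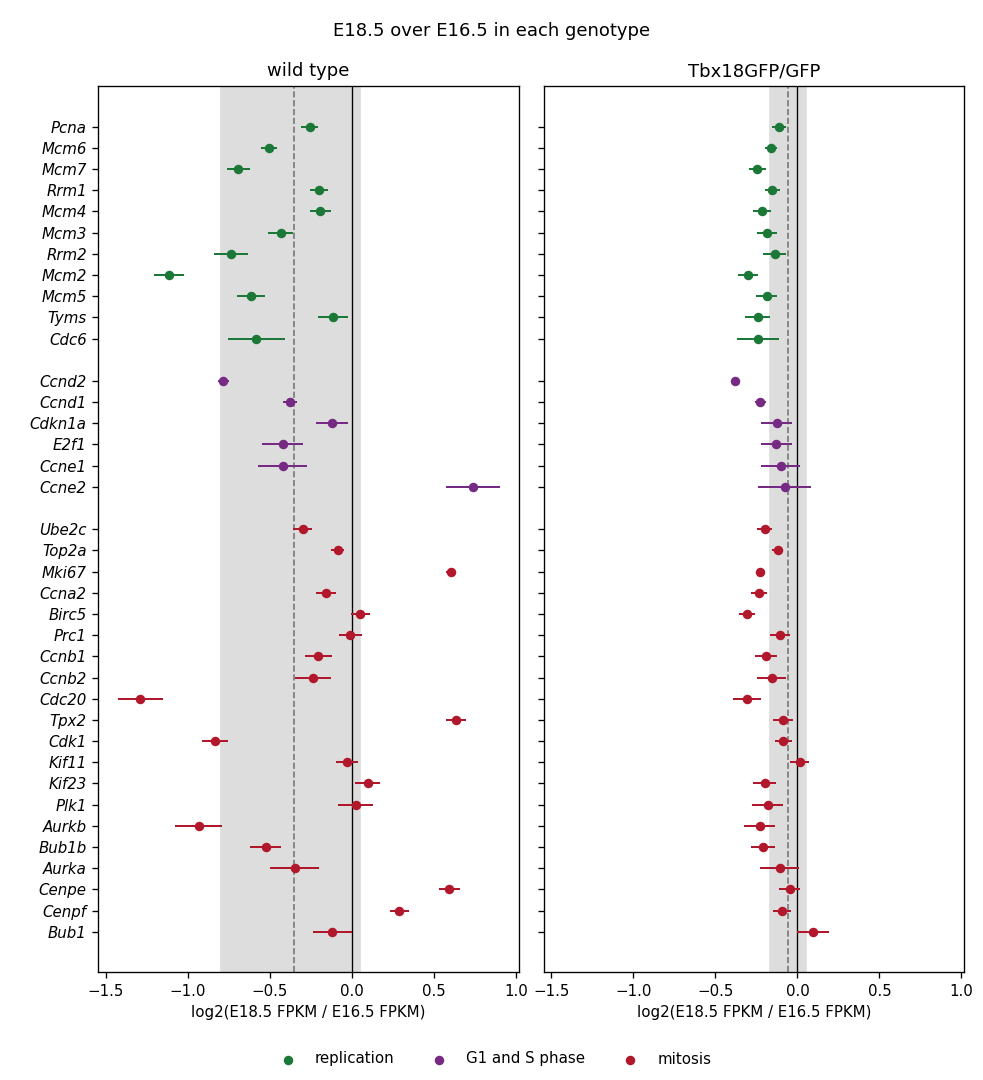
Log2 ratio of E18.5 to E16.5 FPKM for the 37 genes in wild type (left) and mutant (right) UGS, with 95% counting intervals, the quartiles of all genes tested (grey band) and their median (dashed line). As deposited the wild type ratios run from -1.29 for Cdc20 to 0.74 for Ccne2, and the mutant ratios lie between -0.38 and 0.09.

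Further genes of the same pathways, which are not among the 37, were counted from lists. At E16.5, in the values as deposited, 42 of 45 further replication genes (median log2 ratio 0.08) and 55 of 58 further mitosis genes (0.09) were higher in mutant UGS, where 54.2% of all genes were, and none was 1.5-fold apart. With equal FPKM sums the counts were 15 of 45 and 25 of 58, and both medians turned below 0, to -0.02 and -0.01. Among 14 further regulators of G1 and S phase 9 were higher (0.04), or 2 with equal sums, while Myc was at 16.2, 14.0, 17.4 and 14.4 FPKM, below wild type at both stages. At E18.5, 36 of the 45 replication genes were higher, 15 at least 1.5-fold and none 1.5-fold lower, with a median of 0.40 that was 0.11 against the all-gene median and -0.02 with equal FPKM sums. The shares of all genes were 69.5% higher, 33.2% at least 1.5-fold higher and 7.6% at least 1.5-fold lower, so the 15 of 45 are near the background. Of the 58 mitosis genes 34 were higher, 10 at least 1.5-fold, and 5 were 1.5-fold lower, with a median of 0.08 that turned to -0.21 against that median. The share of mitosis genes 1.5-fold higher was thus below that of all genes, and the share 1.5-fold lower near it. Of the 14 regulators 10 were higher (6 with equal sums), 6 at least 1.5-fold, and E2f8, a repressor of E2F targets, was 1.5-fold lower.

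The further genes at least 2-fold apart at E18.5, with at least 5 FPKM in the higher library, were all higher in the mutant. Without that limit, 6 of 45 replication, 3 of 58 mitosis and 2 of 14 G1 and S phase genes were 2-fold higher. So were 2 of 12 inhibitors and 3 of 11 p53 targets, and none was 2-fold lower. Of all genes 15.1% were 2-fold higher and 2.89% lower. The genes past the limit were, like Cdc20, low in E18.5 wild type alone, a library by whose values they were chosen. In replication they were Fen1, the flap endonuclease (12.1, 12.8, 4.47 and 11.6 FPKM), Rpa1 and Rpa2 of the single strand binding complex, Gins2 of the active helicase, Pold1, the catalytic subunit of polymerase delta, and Tk1, thymidine kinase (25.1, 29.0, 11.8 and 25.4 FPKM). Their log2 ratios ran from 1.08 for Rpa1 to 1.37 for Fen1. In mitosis Cenpa, the histone of the centromere, was at 26.1, 29.6, 11.5 and 25.0 FPKM. In G1, Ccnd3, the last of the D cyclins, was at 97.1, 104, 30.6 and 90.4 FPKM. Among the inhibitors, Cdkn2d, which encodes p19, was at 8.63, 8.99, 2.31 and 9.12 FPKM and the antiproliferative gene Btg2 at 13.2, 13.6, 7.09 and 15.0 FPKM. Of the p53 targets, Phlda3, a repressor of AKT, was at 17.8, 22.6, 6.65 and 19.5 FPKM and Bax, which promotes apoptosis, at 37.5, 37.7, 17.1 and 36.1 FPKM. At E18.5 the inhibitor list had 6 of 12 higher (median -0.03) and the p53 list 8 of 11 (0.50). Of all genes 69.5% were higher. Against the all-gene median the list medians were -0.32 and 0.21. With equal FPKM sums they were -0.45 (4 of 12 higher) and 0.07 (6 of 11 higher). As deposited, Cdkn1a lay below the median of both lists. It was not the lowest inhibitor at E18.5, where the log2 ratio was -0.57 for Cdkn1b, -0.53 for Cdkn1c and -0.50 for Rb1. Cdkn1c and Rb1 were also below wild type at E16.5, at -0.11 and -0.23.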

How the data were processed

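RNA from 3 embryos per group was pooled by the authors into 1 stranded mRNA library, and the single-end reads were aligned with TopHat2 2.1.0 and quantified with Cufflinks 2.2.1, after CASAVA 1.8.2 and Trimmomatic 0.30 per the labels. The table as deposited holds FPKM from the authors' quantification, and no scaling between libraries is stated. The genome build of the table is not given in the sources used here. The 4 columns sum to 460392, 495419, 375826 and 504136 FPKM.

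Depth came from olfactory receptor genes with a single read (15 to 27 of them in each library), whose FPKM depends on gene length and library size alone. Ratios were taken without a pseudocount where 1 of the compared libraries reached 1 FPKM, and counted at 1.5-fold and 2-fold. Counting intervals (95%, Clopper-Pearson on estimated reads and the longest GENCODE vM21 coding transcript) cover counting error only. GC content and length were found for 93.7% of rows past 1 FPKM, and the trend was a lowess fit (span 0.3). Scripts used Python 3.11.15, pandas 2.3.3, scipy 1.17.1 and statsmodels 0.14.6, and the ratio and depth steps were tested on simulated data.

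The 37 genes and all lists were chosen with earlier results of these data known. Values are given in full for the 4 genes of largest mean level, those 2-fold apart in any comparison, and Cdkn1a, Ccnd1, Ccnd2, E2f1, Mki67 and Pcna, and further genes were named after their values were seen. Pathway genes are named where they were 2-fold apart between genotypes with at least 5 FPKM in the higher library. Older symbols were matched for 7 listed genes through RefSeq synonyms. Alternatives were equal FPKM sums, the median of all genes, upper quartile scaling, the length and GC trend, pseudocounts of 0.1 and 1, no filter and a 5 FPKM filter. Equal sums without globin rows and E16.5 wild type in place of E18.5 wild type were added after the data were seen, as were equal sums for the pathway lists.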

Additional observations from a re-analysis of the deposited data

Results flagged for a closer look

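As deposited, the difference between mutant and wild type UGS had opposite directions at E16.5 and E18.5 for 10 of the 37 genes. The share of all genes with opposite directions was not counted. With 1 library per group these differences between the stages were not tested, and all of the E18.5 values rest on the E18.5 wild type library. The change in log2 ratio of mutant to wild type from E16.5 to E18.5 was -0.83 for Mki67, -0.82 for Ccne2, -0.72 for Tpx2, -0.64 for Cenpe and -0.38 for Cenpf, the genes that were highest in E18.5 wild type. It was -0.36 for Birc5, -0.30 for Kif23, -0.20 for Plk1 and -0.13 for Tyms. Bub1 alone turned upward, by 0.21, from -0.04 to 0.18. Counting intervals held both signs at E18.5 for Tyms (-0.15 to 0.04) and Plk1 (-0.21 to 0.02). At E16.5 they did so for Bub1 (-0.13 to 0.06), Tyms (-0.0015 to 0.14) and Ccne2 (-0.008 to 0.30). The genes with opposite directions were not recounted under other scalings. With equal FPKM sums the genes higher in the mutant went from 34 to 19 at E16.5 and from 26 to 10 at E18.5.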

How the results depend on the processing

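No paired analysis was possible because the labels give each group 1 library. The pseudocounts and the filters on low values turned no median and moved no count of genes by 1.5 times. In each list below, replication comes before mitosis. For E16.5 mutant over wild type the medians were 0.0275 and 0.00458 with equal FPKM sums and 0.0567 and 0.0338 with equal sums without globin rows. For E18.5 mutant over wild type they were 0.0587 and -0.37 with equal sums, 0.12 and -0.30 without globin rows, 0.19 and -0.23 against the all-gene median, 0.22 and -0.20 with upper quartile scaling, 0.0291 and -0.13 with the length and GC trend subtracted, and -0.0781 and -0.0562 with E16.5 wild type in place of E18.5 wild type. That last setting compares libraries that differ in both stage and genotype, and the median over all genes in it was -0.04. There 0 of 37 genes were 1.5-fold apart in place of 8, and 8 of 37 were higher in place of 26. The shares of all genes were not counted for this pair. Among the genes 1.5-fold apart as deposited, Mcm2 (-0.22), Mcm5 (-0.0273), Aurkb (-0.0556), Cdc20 (-0.18) and Ccne2 (0.0654) had the other direction in this pair. So did genes outside that set, among them Mcm7 (-0.17) and Tpx2 (0.0571). For wild type E18.5 over E16.5 the medians were -0.21 and 0.19 with equal sums, -0.25 and 0.15 without globin rows, -0.17 and 0.23 against that median, -0.21 and 0.19 with the upper quartile, and -0.14 and 0.15 with the trend subtracted. The count of genes 1.5-fold apart there was 12 as deposited, 7 with equal sums with or without globin rows, and 5 with the trend subtracted. At 2-fold it was 2, and 1 for E18.5 mutant over wild type. For mutant E18.5 over E16.5 the trend gave -0.12 and -0.0929, and the all-gene median gave -0.13 for replication. The cause of these shifts was not tested. Depth was lowest in E18.5 wild type, where the smallest value rested on an estimated 350 reads.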

Other observations

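Of the 58 further mitosis genes, the 5 that were at least 1.5-fold lower in E18.5 mutant UGS are named here after their values were seen. Of all genes tested 7.6% were, which is near 5 of 58, and 10 of the 58 were at least 1.5-fold higher. Ckap2l, a spindle protein, was at 28.5 FPKM in E18.5 wild type and at 15.6 to 17.7 FPKM in the other 3 libraries. Hmmr, a spindle assembly factor, was at 10.1, 10.6, 16.4 and 10.9 FPKM in the order E16.5 wild type, E16.5 mutant, E18.5 wild type and E18.5 mutant, and Kif20b, a kinesin of cytokinesis, at 6.40, 7.38, 11.0 and 6.99 FPKM. Mad2l1, which encodes the checkpoint protein MAD2, was at 22.7, 23.2, 35.1 and 22.9 FPKM, and Cenpk, a kinetochore gene, at 9.93 to 10.9 FPKM outside E18.5 wild type, with a log2 ratio of mutant to wild type of -0.74 at E18.5. All 5 were highest in E18.5 wild type, the library by whose values they were chosen.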
